A study of Mus musculus with 2 samples.

Results

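Mir320, Mir484, Mir877 and Mir1839 are miRNA genes whose precursors are known to form without the standard Drosha cut. They were taken by gene symbol from the mouse annotation GENCODE M21, and all 4 were found among the 2202 miRNA genes counted. The data are microRNA sequencing (short-insert libraries, selected below 30 nt per the labels) of total RNA from whole hearts of 10-day-old female B6CASTF1/J mice, an F1 hybrid strain. The labels give 2 hearts, numbered as biological replicates 1 and 2, each a separate biosample with 1 library. They name no treatment, transgene, second tissue, second age or batch, so no comparison between conditions was made.

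A standard miRNA precursor is cut from its transcript in the nucleus by Drosha and is then trimmed by Dicer in the cytoplasm. Mir320 and Mir484 take another route: their hairpins begin at the transcription start, carry the cap and go straight to Dicer. Mir877 is a mirtron, a short intron that splicing and debranching release as a hairpin, and Mir1839 comes from a small nucleolar type of RNA whose usual task is to guide RNA modification. In the heart, miR-320 has been studied in ischaemic injury and miR-484 as a repressor of Fis1, a factor of mitochondrial fission.

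Mature sequences are given below, and the hairpins of Mir877 and Mir1839 follow with their loci. RefSeq (GRCm38.p6, the same assembly as mm10) matched 3 of the 4 genes, and no match was used for Mir320. In the mature forms, capitals mark the seed (bases 2 to 8), the stretch that pairs with target mRNAs.
mmu-miR-484: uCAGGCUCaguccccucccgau
mmu-miR-877-5p: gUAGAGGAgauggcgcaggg
mmu-miR-877-3p: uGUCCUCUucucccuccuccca
mmu-miR-1839-5p: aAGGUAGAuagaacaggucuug
No 2 of these seeds were alike, and none was shared with a mature miRNA of another gene among the 1738 mature entries of that table. The bases AGGUAG at positions 2 to 7 of miR-1839-5p also stand at positions 2 to 7 of miR-196a-5p and miR-196b-5p. The same letters lie 1 base further on, at positions 3 to 8, in 11 other mature miRNAs, 9 of them let-7 forms and the others miR-98-5p and miR-1961. These make up 0.748% of the mature entries, in which some names stand more than once, and only the miRNA strand was read. This match was looked for after the sequences had been seen.

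Mir877 showed the layout of a mirtron in full. Its hairpin is printed with the first and last pair of bases in capitals, the letters of a splice donor and a splice acceptor written as RNA.
Mir877 hairpin: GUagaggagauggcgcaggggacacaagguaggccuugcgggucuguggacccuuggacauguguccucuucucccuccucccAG
It lies at chr17:35960730-35960814 on the minus strand (mm10) and fills an 85-base intron of Abcf1, an ATP-binding cassette protein that acts in translation, with 0 bases left over at either end. miR-877-5p starts at the first base of the hairpin, so its 5′ end is the intron's 5′ end. Among 273 mature 5p forms of detected genes, 10 (3.66%) began at the first hairpin base, and the median was 12 bases in. This offset depends on where the annotation begins a hairpin. Mir1981 and Mir1982, which also fill introns, had 0 and 11 bases, and Mir664, which comes from a small nucleolar RNA, had 0. Of 296 detected genes with a RefSeq hairpin, 6 (2.03%) had hairpins that open with GU and close with AG: Mir877, Mir1981, Mir1982, Mir6944, Mir20a and Mir194-2.

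Mir1839 was annotated as a miRNA and as a small Cajal body RNA (scaRNA) at the same place. In its hairpin the capitals mark miR-1839-5p.
Mir1839 hairpin: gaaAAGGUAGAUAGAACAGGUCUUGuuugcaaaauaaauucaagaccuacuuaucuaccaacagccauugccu
The hairpin lies at chr7:81529916-81529988 on the plus strand, and 66 of its 73 bases fall in the 127-base scaRNA on the same strand. All 73 bases also lie in an exon of one transcript of 2900076A07Rik, a long noncoding RNA gene. Short fragments of the scaRNA that fall in this stretch would be counted on Mir1839 as well, and the tables do not separate them from miR-1839-5p.

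Mir320 and Mir484 both lay upstream of a protein-coding start that faces the other way. Mir320 (chr14:70443510-70443591, plus strand, intergenic) starts 63 bases upstream of the start of Polr3d, a subunit of RNA polymerase III. Mir484 (chr16:14159626-14159692, plus strand, inside the span of Marf1 on the opposite strand) starts 359 bases upstream of a start of Marf1, which encodes an RNA-binding protein. Another Marf1 transcript, with a start further away, has an untranslated exon that overlaps the last 19 bases of the Mir484 hairpin on the opposite strand. miR-484 itself starts after the fourth base of its hairpin, and miR-1839-5p after the third base.

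**Figure D1:**
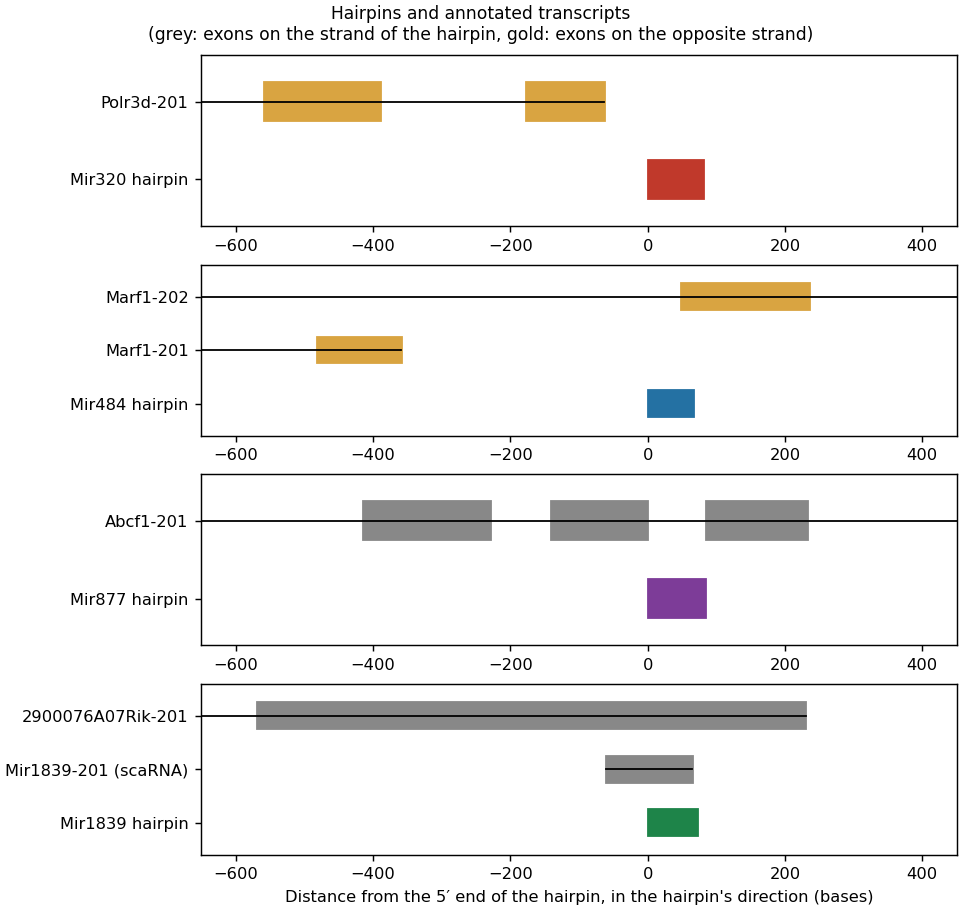
Positions of the 4 hairpins (coloured) and of annotated transcripts, in bases from the 5′ end of each hairpin; boxes are exons, thin lines the rest of a transcript. The Mir877 hairpin fits exactly between 2 Abcf1 exons, most of Mir1839 lies in its scaRNA, and Mir320 and Mir484 start 63 and 359 bases upstream of oppositely oriented starts.

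The 2 libraries held 4260561 and 4583025 reads on named miRNA genes, 39.5% and 44.9% of their reads. Multimapping reads, 38.9% and 37.96% of all reads, belong to no gene in these tables. The miRNAs that mark cardiac muscle through their myosin host genes were present in both hearts: Mir499 had 23187 and 18911 counts in replicates 1 and 2, Mir208a 12599 and 6263, and Mir208b 5304 and 4781. Levels are given as CPM, counts per 1000000 reads on named genes in the gene's own orientation. In whole tissue, fewer cells of a type and less RNA per cell cannot be told apart.

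Mir320 had 11516 counts in replicate 1 and 7600 in replicate 2, corresponding to 2703 and 1658 CPM. Replicate 1 was the higher of the hearts, and the gene ranked 45 there and 55 in replicate 2. Its share of the counts was 0.270% (exact 95% Clopper-Pearson interval 0.265 to 0.275) and 0.166% (0.162 to 0.170). Its mean level was 2181 ± 739 CPM (SD, n = 2), rank 50 of all 2202 genes and above 85.5% of the detected genes. In mean CPM, Mir140 (2261 ± 866) stood just above it and the cardiac Mir208a (2162 ± 1125) just below, both within 1 SD of Mir320.

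Mir484 had 7017 counts in replicate 1 and 9182 in replicate 2, or 1647 and 2003 CPM. Here replicate 2 was the higher, unlike for the other 3 genes. Its share was 0.165% (interval 0.161 to 0.169) and 0.200% (0.196 to 0.204). The mean level was 1825 ± 252 CPM (SD, n = 2), rank 60, between Mir361 (1828 ± 111 CPM) and Mir181b-2 (1508 ± 120 CPM). Of the 2 miRNAs with the same bases 2 to 7 as miR-484, Mir7656 had 0 counts in both hearts and Mir1191b 1 and 5.

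Mir1839 had 6285 and 5770 counts, or 1475 and 1259 CPM, close in the 2 hearts and higher in replicate 1. Its share was 0.148% (interval 0.144 to 0.151) and 0.126% (0.123 to 0.129). The mean level of 1367 ± 153 CPM (SD, n = 2) gave rank 67, between Mir455 (1454 ± 421 CPM) and Mir532 (1362 ± 99.3 CPM). Mir196b, which shares bases 2 to 7 with it, stood at 31.2 ± 3.05 CPM, while Mir196a-1 and Mir196a-2 had at most 1 count a library. Of the 11 let-7 genes matched in RefSeq that hold these bases 1 position further on, 6 were above Mir1839 in mean CPM, up to Mirlet7i at 88800 ± 10853, and 5 were below, among them Mirlet7c-2 at 988 ± 36.4 and Mirlet7a-1 at 459 ± 51.7. Mature miR-196a, let-7a, let-7c and let-7f have several gene copies, so the counts of those genes are uncertain. The low counts of Mir196a-1 and Mir196a-2 therefore do not show that miR-196a is absent.

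Mir877 had 205 counts in replicate 1 and 146 in replicate 2, or 48.1 and 31.9 CPM. It was the least abundant of the 4 in both hearts. Its share was 0.00481% (interval 0.00418 to 0.00552) and 0.00319% (0.00269 to 0.00375). Its mean level was 40.0 ± 11.5 CPM (SD, n = 2), rank 202, above 41.6% of the detected genes, and Mir494 (40.4 ± 13.0 CPM) and Mir300 (38.5 ± 1.99 CPM) were its neighbours. The counts do not separate the 5p from the 3p arm.

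All 4 genes were detected, meaning 10 or more counts in both hearts, against 15.7% of all 2202 miRNA genes (346). Together they took 0.587% of the counts in replicate 1 and 0.495% in replicate 2 (mean 0.541% ± 0.0651, SD, n = 2). The median level of the detected genes was 85.1 CPM, so Mir320, Mir484 and Mir1839 lay above it and Mir877 below. The limit of detection, taken as 3 counts, lay at 0.704 and 0.655 CPM in the libraries, far below each of the 4. Both this limit and the intervals describe counting error within a library alone. The labels mention no molecular identifiers, so reads copied from the same molecule cannot be told from others. The intervals may therefore be too narrow even for counting error. None of the 4 had a read on the opposite strand in either library, and their counts were the same with and without regard to strand.

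**Figure D2:**
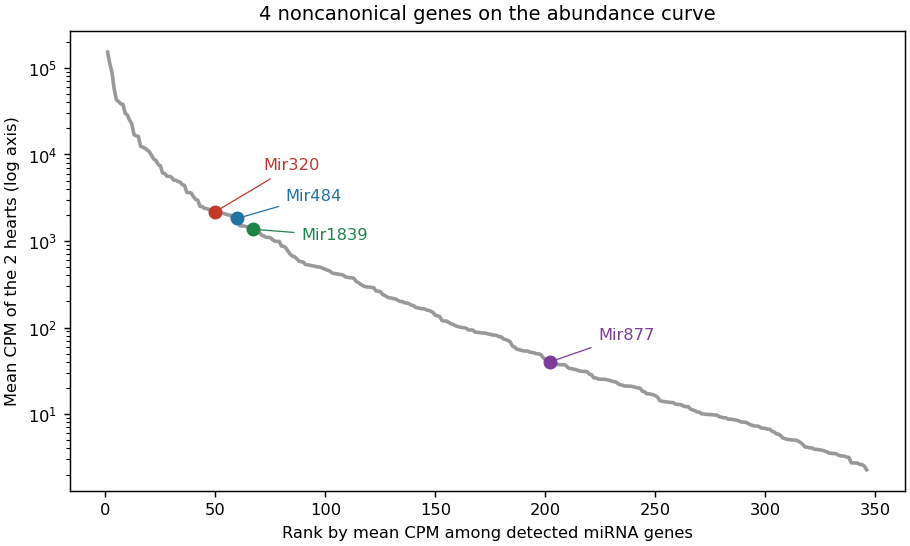
Mean CPM (log axis) of the 346 detected miRNA genes against their rank, with the 4 genes marked. Mir320, Mir484 and Mir1839 sit at ranks 50, 60 and 67, and Mir877 at rank 202.

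The order of the first 2 genes changed between the hearts. By counts, the ratio of Mir320 to Mir484 was 1.64 in replicate 1 and 0.828 in replicate 2. On the log2 scale these ratios were 0.71 (exact 95% interval 0.67 to 0.76) and -0.27 (-0.32 to -0.23). Per 100 bases of hairpin, the mean levels were 2724 ± 376 CPM for Mir484, 2659 ± 901 for Mir320, 1873 ± 209 for Mir1839 and 47.0 ± 13.5 for Mir877 (SD, n = 2). On that scale Mir484 and Mir320 overlapped between hearts and cannot be put in order. Mir1839 was below both in each heart, although its value of 2021 in replicate 1 nearly met the 2022 of Mir320 in replicate 2. A read covers a mature miRNA and not the whole hairpin, so division by hairpin length is a second scale and not a correction.

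Mir877 stood clearly apart from the other 3. On the scale of counts, Mir320 exceeded it 56.2-fold in replicate 1 and 52.1-fold in replicate 2, and Mir484 exceeded it 34.2-fold and 62.9-fold. Per hairpin length, these folds were 58.2 and 54.0 for Mir320 and 43.4 and 79.8 for Mir484. The gap to Mir1839 was the smallest in each heart. Mir877 had 0.0326 of the Mir1839 counts in replicate 1 and 0.0253 in replicate 2. Ratios between different sequences also hold any differences in ligation and in mapping, which were not tested.

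The hearts were then compared gene by gene, with an exact two-sided binomial test of the 2 counts given the effective library sizes and Benjamini-Hochberg adjustment over the 375 genes whose counts summed to at least 20. This test compares 2 libraries and not conditions. It takes each read as separate, so reads copied from the same molecule would make its p-values too small. All 4 genes differed beyond counting noise, but so did 55.2% of the genes tested (207), and 92.1% (70 of 76) of those at 1000 CPM or more. A difference of this kind is therefore the usual case for abundant genes. Mir320, Mir877 and Mir1839 were higher in replicate 1, as were 29.1% of the genes tested, and Mir484 was higher in replicate 2, as were 26.1%.

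The log2 ratios of replicate 2 over replicate 1, and their folds, were scaled by the effective library sizes. They therefore differ from ratios of the CPM values above. The log2 ratio was -0.64 for Mir320 (exact 95% interval -0.68 to -0.60, exact binomial test, adjusted p = 3.12e-200), or 1.56-fold higher in replicate 1. For Mir877 it was -0.53 (-0.84 to -0.22, exact binomial test, adjusted p = 0.0017), or 1.44-fold. Mir1839 had the smallest difference, -0.16 (-0.21 to -0.11, exact binomial test, adjusted p = 2.52e-09), or 1.12-fold. Mir484 went the other way, at 0.35 (0.30 to 0.39, exact binomial test, adjusted p = 3.43e-52), or 1.27-fold. The median size of the log2 ratio was 0.44 over the 4 genes and 0.37 over the 375 tested. Over the 76 genes at 1000 CPM or more, among them Mir320, Mir484 and Mir1839, it was 0.25, which Mir320 and Mir484 exceeded and Mir1839 did not. None of the 4 reached 2-fold, which 10.7% of the genes tested did in addition to passing the test. The interval of Mir877, which had the fewest counts, was the widest. These intervals describe counting error alone and leave out the choice of library scaling.

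The capped pair, Mir320 and Mir484, thus differed between hearts in opposite directions. The cardiac muscle markers were also higher in replicate 1, with log2 ratios of -1.05 for Mir208a, -0.33 for Mir499 and -0.19 for Mir208b (3 of 3 called). The erythroid miRNAs were higher in replicate 2, at 2.64 for Mir144 and 1.25 for Mir451a (2 of 2 called). Mir122, the marker of liver, was at 0.95 and higher in replicate 2, and Mir206 of skeletal muscle was at -0.25 and not called. The part of these differences in the ratios of the 4 genes was not tested.

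**Figure D3:**
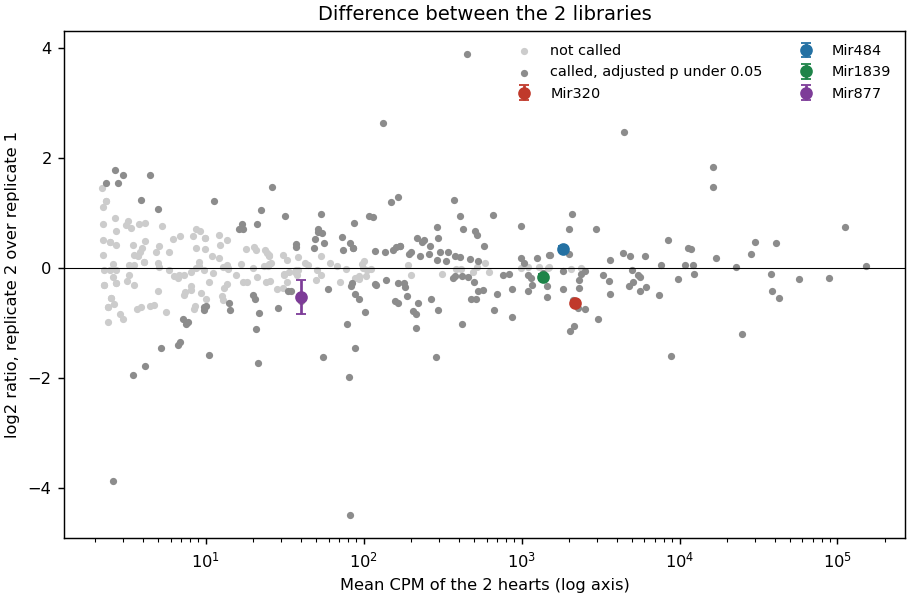
log2 ratio of replicate 2 over replicate 1 against mean CPM (log axis) for the 375 genes tested; bars on the 4 coloured genes are exact 95% intervals for counting error, and darker grey marks genes past the test. Mir320, Mir877 and Mir1839 lie below 0 at -0.64, -0.53 and -0.16, and Mir484 lies above at 0.35, all inside the cloud of other genes.

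A list of 6 other miRNA genes with an unusual route was set beside them: the mirtrons Mir702, Mir1224, Mir1981 and Mir3102, the small nucleolar RNA (snoRNA) derived Mir664, and Mir451a, which Ago2 cuts in place of Dicer. Of these, 5 of 6 were detected, against 15.7% of all 2202 miRNA genes. Mir451a led at 376 ± 206 CPM, followed by Mir1981 (180 ± 30.2), Mir3102 (159 ± 24.7), Mir664 (61.0 ± 0.690) and Mir702 (20.3 ± 3.11), so Mir320, Mir484 and Mir1839 were above all of them and Mir877 lay between Mir664 and Mir702. Mir1224 had 1 and 4 counts. Between the hearts, 3 of the 5 tested were called, near the share of 55.2% over all 375 genes tested. Mir1981 was higher in replicate 1 (log2 ratio -0.28), and Mir3102 (0.38) and Mir451a (1.25) were higher in replicate 2. Mir702 (0.38, -0.06 to 0.83) and Mir664 (0.09, -0.16 to 0.34) were not called.

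**Figure D4:**
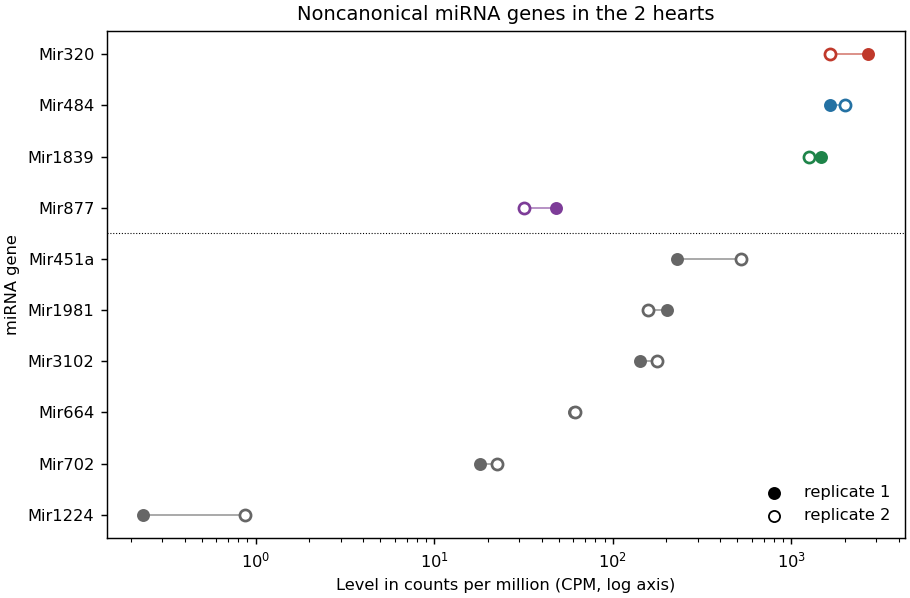
CPM (log axis) of the 4 genes (above the dotted line) and of 6 other noncanonical miRNA genes (grey), with filled points for replicate 1 and open points for replicate 2. Mir320, Mir484 and Mir1839 lie above 1000 CPM in both hearts, while Mir877 lies between 31.9 and 48.1 CPM.

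Each gene was also placed among the miRNA genes that share its layout in the annotation. Of 23 genes whose hairpin ends lie within 5 bases of the ends of an intron, 5 were detected (21.7%, against 15.7% of all genes), and Mir877 had the third highest mean CPM, after Mir1981 in Marc2 and Mir3102 in Arhgef17. The next, Mir1982 in Oaz1 and Mir6944 in Dbn1, stood at 5.03 ± 2.46 and 5.01 ± 1.22 CPM. Of 24 genes that overlap a snoRNA or scaRNA gene on the same strand, 10 were detected (41.7%), and Mir1839 was first. The next were Mir1843a (137 ± 15.6 CPM, overlapping Scarna3b), Mir1843b (86.8 ± 31.5 CPM, Scarna3a) and Mir664 (61.0 CPM, Snora36b). Thus Mir1839, at 1367 CPM, stood far above the 137 CPM of the next gene of this layout. Of 36 genes that start within 500 bases upstream of an oppositely oriented protein-coding start, 5 were detected (13.9%). Mir320 and Mir484 were first and second, and the third, Mir760, had 9.33 ± 2.40 CPM. The 500-base window was chosen after the loci had been seen, and the layouts do not show how any of the other genes is processed.

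Mir1839 and Mir484 had the lowest shares of paired bases in predicted folds, though other genes followed closely. Mir877 lay higher, and Mir320 was not folded. The RefSeq hairpins of 296 of the 346 detected genes (85.5%) were folded with RNAfold, and the share of bases that were paired had a median of 72.7%. Mir1839 had the lowest share of all, 49.3%, and Mir484 the second lowest, 53.7%. Next was Mir1843b, at 54.5%, which like Mir1839 overlaps a scaRNA. Mir877 was at 65.9%, with 55 of the 296 lower. The 9 folded hairpins that overlap a snoRNA or scaRNA gene, Mir1839 among them, had a median of 61.5%.

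Fold energy and base composition were less uniform. The predicted minimum free energy per 100 bases was -30.1 kcal/mol for Mir1839, -36.7 for Mir484 and -42.9 for Mir877, against a median of -43.7, where a value nearer 0 means a less stable fold. The GC content of the hairpin was 37.0% for Mir1839, 58.2% for Mir484 and 61.2% for Mir877, against a median of 50.7%. Mir1839 was thus the most AT-rich of the 3 and Mir877 the most GC-rich. A fold of the annotated hairpin depends on where the annotation ends it, and no structure was measured here.

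**Figure D5:**
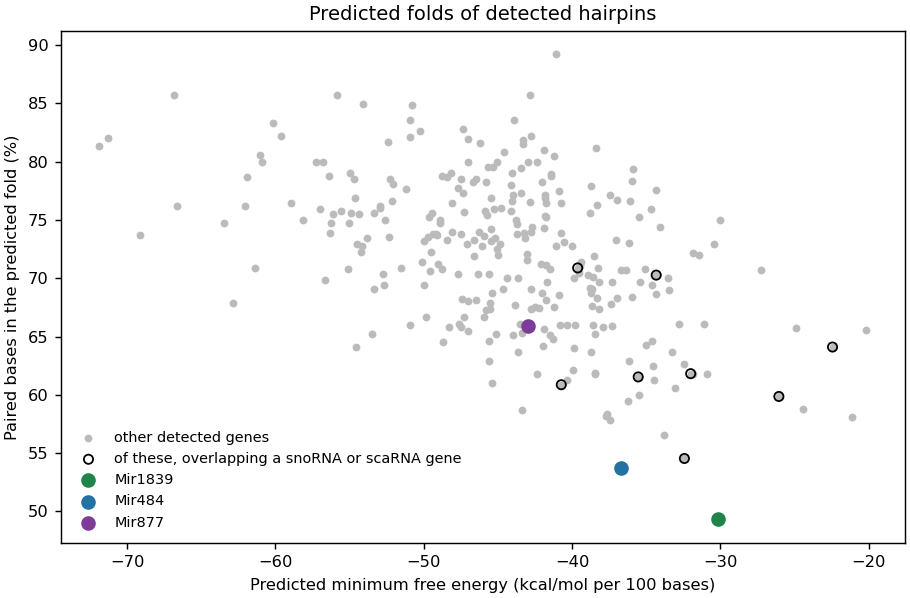
Share of paired bases in the predicted fold against predicted minimum free energy per 100 bases for 296 detected hairpins; each point is a gene, and open circles overlap a snoRNA or scaRNA gene. Mir1839 (49.3% paired) and Mir484 (53.7%) are the 2 lowest points, and Mir877 (65.9%) lies nearer the bulk.

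Reads from identical or near-identical copies would be lost to these counts. Exact copies of the mature sequences were therefore looked for elsewhere. Over 141767 annotated M21 transcripts, miR-484, miR-877-5p and miR-877-3p were found in their own gene alone, and miR-1839-5p in Mir1839, in its scaRNA and in 2900076A07Rik, which share its locus. The longest exact run that a hairpin shared with another miRNA gene was 12 bases for Mir484, 13 for Mir877 and 11 for Mir1839. Mir320, copies with a mismatch and copies outside annotated transcripts were not searched here.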

How the data were processed

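The tables, 1 for each library, were made by the authors on mm10 with GENCODE M21, per the file headers. The deposited values are raw read counts per gene, not normalized. Aligner and counter: not given in the sources used here. Signal tracks were not used here. The column for the gene strand was used. The 4 category rows stayed out of library sizes: in replicates 1 and 2 unmapped reads took 16.9% and 12.2% of all reads, multimapping reads 38.9% and 37.96%, and reads outside features 4.71% and 4.89%. All 2202 gene IDs matched M21.

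From the counts, CPM, shares, trimmed mean of M values (TMM) factors (edgeR 4.0.16, R 4.3.3) and ratios with a prior count of 0.5 were computed. The exact binomial test ran across all genes whose counts summed to at least 20, called at an adjusted p under 0.05. It was also run on simulated counts with counting error alone, which is its own assumption. That run cannot show how the test behaves with spread between animals. With 1 group there was no contrast for an edgeR test; the biological coefficient of variation from its common dispersion was 0.316. Hairpins were folded with RNAfold 2.7.2. Python 3.11.15, scipy 1.17.1 and statsmodels 0.14.6 were used. The hearts are separate biosamples per the labels. The 4 genes, the lists and the tests were chosen with earlier results of these data known. Named genes were the 4, the comparison list, leading genes of each layout, the neighbours in mean CPM, genes sharing a seed (extended to bases 2 to 7 afterwards) and tissue markers. Alternatives were the unstranded column, DESeq2 1.42.0 factors, total counts, other denominators, minimums, tolerances and windows, and leaving out a replicate.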

Additional observations from a re-analysis of the deposited data

How the results depend on the processing

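Of 59 values under alternatives other than leaving out a replicate, 42 were kept, 16 moved and 1 changed sign. Kept means the same side of the test, within 1 SD, or within 1.5 times for counts of genes. No paired analysis was possible because the design has a lone group. The ratio between hearts kept its direction and call for all 4 genes under the alternatives run for it. These were total counts, DESeq2 factors (1 for both libraries, so the ratio of unscaled counts), a prior count of 5 and the unstranded column. The adjusted p of Mir877 ranged from 0.000361 to 0.00439 (exact binomial test). Total counts shifted the log2 ratios of replicate 2 over replicate 1 by -0.066. They became -0.705 for Mir320, 0.283 for Mir484, -0.593 for Mir877 and -0.229 for Mir1839. All but that of Mir877 lay outside the exact intervals given above for effective library sizes. DESeq2 factors, with a shift of 0.039, left all 4 ratios inside those intervals. Mean CPM of Mir320, Mir484, Mir877 and Mir1839 was 3076, 2606, 56.5 and 1939 with the unstranded column, where fewer reads are assigned, and 906, 775, 16.7 and 574 over all reads. Without Mir378a, the most abundant gene, all 4 rose, to 2574 CPM for Mir320, 2153 for Mir484, 47.2 for Mir877 and 1613 for Mir1839. Mir320 and Mir877 stayed within 1 SD, and Mir484 and Mir1839 did not. Leaving out a heart gave 1658 to 2703 CPM for Mir320, 1647 to 2003 for Mir484, 31.9 to 48.1 for Mir877 and 1259 to 1475 for Mir1839. The mean log2 ratio of Mir320 over Mir484 was 0.22, turned to -0.0705 per hairpin length, and was -0.27 without replicate 1 and 0.71 without replicate 2. Of the 207 genes called, 40 were also 2-fold apart, and 0 of the 4. Genes at 1 or more counts numbered 602. Mirtron-like genes numbered 42 within 15 bases. Genes upstream of an oppositely oriented start numbered 23 within 250 bases and 63 within 1000, windows added after the data were seen. Depth limits Mir877 most.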

Other observations

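The other miRNA genes that overlap a snoRNA or scaRNA did not all differ between the hearts in the direction of Mir1839. Mir1843a had 536 counts in replicate 1 and 678 in replicate 2 (log2 ratio of replicate 2 over replicate 1 0.30, exact 95% interval 0.13 to 0.47), and Mir1843b had 275 and 500 (0.82, 0.61 to 1.04), both higher in replicate 2. mmu-mir-3535, which holds the snoRNA gene Gm24148, had 67 and 121 counts (0.81, 0.37 to 1.27). Higher in replicate 1 were Gm49347, overlapping Snora74a (54 and 34 counts, -0.70), and Mir1949, overlapping a snoRNA gene of the same symbol (28 and 8 counts, -1.78), together with Mir1839. Of the 11 genes of this layout that were tested, 5 were not called, and the 6 others split evenly between the hearts. The mix was similar over all 375 genes tested. Of those, 55.2% were called, 29.1% as higher in replicate 1 and 26.1% as higher in replicate 2.

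Of the 7 mirtron-like genes tested, 2 were higher in replicate 1, 4 higher in replicate 2 and 1 was not called, against 29.1% and 26.1% of all genes tested that were higher in replicates 1 and 2. Mir877 and Mir1981 (log2 ratio -0.28) were higher in replicate 1. Mir3102 (0.38), Mir1982 (1.08), Mir7018 (1.55) and Mir7068 (1.79) were higher in replicate 2, and Mir6944 (-0.43, -1.38 to 0.48) was not called. Mir7018 had 6 and 19 counts and Mir7068 5 and 19.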
